A study of Homo sapiens with 12 samples.

Results

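The genes described here are 10 amino acid transporters of the plasma membrane: SLC3A2, SLC7A5, SLC7A11, SLC7A1, SLC1A4, SLC1A5, SLC38A1, SLC38A2, SLC6A9 and SLC43A1. They are 10 of the 58735 genes in the expression table and were selected by name, with earlier results of these data known. SLC3A2 and SLC7A11 were put among them because their levels were higher after treatment in the libraries labelled KGN. That contrast is therefore given for all members as a description, with no p for any of them. The 7 other gene lists below were also chosen with earlier results known, so their shares and p-values are not independent of these data. RNA was sequenced from granulosa cell tumor (GCT) lines of WT genotype, which the study describes as adult-type for KGN and juvenile-type for COV434. Each line was left untreated or was treated for 72 h with 77-39, used there as a small molecule inhibitor of the mitochondrial deacetylase SIRT3, and each of the 4 groups holds 3 libraries. The dose is written as 10 um/ml, a unit that fixes neither a molar nor a mass concentration, and the same text stands on the untreated samples, which are untreated by their titles. Each group is 1 established line, and nothing says whether the 3 libraries of a group came from separate cultures, so p-values measure the spread between these libraries, which may be technical.

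Cells take up amino acids through carriers that differ in substrate and driving force. SLC3A2 (CD98, the 4F2 heavy chain) does not transport by itself. It holds a light chain at the cell surface. Among the light chains are SLC7A5 (LAT1), which exchanges large neutral amino acids, and SLC7A11 (xCT). SLC7A11 imports cystine in exchange for glutamate and feeds glutathione synthesis. SLC1A4 carries small neutral amino acids, and SLC1A5, SLC38A1 and SLC38A2 carry these and glutamine. SLC7A1 carries arginine and lysine, SLC6A9 carries glycine, and SLC43A1 (LAT3) carries leucine and related amino acids. Transcription of several of these genes is known to be raised by ATF4, the factor of the amino acid and integrated stress responses, which binds with C/EBP partners, and SLC7A11 is also a target of the oxidative stress factor NRF2.

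Promoter windows were searched for the 2 motifs by which such factors are known to bind, and 4 stretches that hold them are printed to show where the letters lie. RefSeq windows on GRCh38.p14, from 250 bases before to 50 bases after a start site, were found for 9 of the 10 members and numbered 16, since some genes have several starts. SLC7A11 was not among them. The start sites are those of RefSeq, and 10 of the 16 windows had theirs within 10 bases of a transcript start in GENCODE release 29. The SLC7A5 start lay 19 bases from the nearest such start, and that of the SLC38A1 window with a motif 1185 bases. TGATGNAAN, the core of the C/EBP-ATF response element, was searched on both strands and stood in 5 of these 16 windows, of 5 members, and in 3.61% of all 35116 windows of that length. TGACNNNGC, the core of the antioxidant response element, stood in 4 of the 16 windows, of 4 members, and in 13.3% of all windows. These stretches come from windows of SLC3A2, SLC7A5, SLC7A1 and SLC1A4 that hold such letters near the start. Each is printed 5′ to 3′ along the gene, from 120 bases before the start site to the first 30 bases of the transcript, with either motif in capitals. They lie at chr11:62881579-62881728 on the plus strand, chr16:87869478-87869627 on the minus strand, chr13:29595659-29595808 on the minus strand and chr2:64989279-64989428 on the plus strand.
SLC3A2: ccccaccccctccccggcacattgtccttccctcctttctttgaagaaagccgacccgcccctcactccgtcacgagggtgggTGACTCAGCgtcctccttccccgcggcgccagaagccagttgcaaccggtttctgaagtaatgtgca
SLC7A5: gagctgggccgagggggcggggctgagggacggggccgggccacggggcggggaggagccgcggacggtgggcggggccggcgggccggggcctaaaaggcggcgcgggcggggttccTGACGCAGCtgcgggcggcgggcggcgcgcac
SLC7A1: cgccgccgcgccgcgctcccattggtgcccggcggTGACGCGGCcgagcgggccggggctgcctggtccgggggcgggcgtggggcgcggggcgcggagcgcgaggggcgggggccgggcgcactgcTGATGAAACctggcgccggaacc
SLC1A4: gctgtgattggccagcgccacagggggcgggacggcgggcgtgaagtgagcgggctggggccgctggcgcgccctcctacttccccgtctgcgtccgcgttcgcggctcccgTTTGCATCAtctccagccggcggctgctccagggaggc

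In SLC3A2 the capitals are TGACTCAGC, whose first base is 37 bases before the start. The C/EBP-ATF core of SLC3A2 begins at base 37 of the transcript, past the stretch shown, and reads TGATGTAAG on the strand opposite to the gene. In SLC7A5 the capitals are TGACGCAGC, beginning 2 bases before the start. SLC7A1 holds both motifs, TGACGCGGC beginning 85 bases before the start and TGATGAAAC beginning at base 8 of the transcript. In SLC1A4 the capitals are the C/EBP-ATF core on the opposite strand, TGATGCAAA, at 8 bases before the start. The other hits were in 2 windows of SLC1A5, with 1 motif each, and in a window of SLC38A1, and no window of SLC38A2, SLC6A9 or SLC43A1 held either motif. No 2 hits overlapped in the windows shown, and a match is only a match of letters.

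The libraries held 15547851 to 18280415 reads on genes, recovered from the deposited FPKM (fragments on a gene scaled to its length and to the size of the library), and 58 to 86124 reads on each member apart from SLC38A1. The limit that a count of 0 allows, 3 reads, equals at most 0.0175 FPKM for SLC38A1 in untreated and 0.0179 FPKM in treated KGN libraries, and covers counting error only. Libraries labelled COV434 spread more between replicates, and their mitochondrially encoded genes took 7.71% to 13.5% of reads, against 7.3% to 8.81% in those labelled KGN. Some markers went against the labels: FOXL2, a transcription factor that defines granulosa cells, had 2 reads in the 6 libraries labelled KGN together. SMARCA2 and SMARCA4, the ATPases of the SWI/SNF chromatin remodeler, known to be lost in some ovarian tumor lines, were also low there, with 13 reads of SMARCA2 in the 6 libraries and SMARCA4 at 2.58 FPKM untreated, against 9.22 FPKM in untreated COV434 libraries. In those labelled COV434 FOXL2 stood at 12.4 ± 0.786 FPKM untreated and 13.5 ± 0.403 FPKM treated (SD, n = 3), and the keratin KRT8 at 221 ± 42.1 FPKM untreated (SD, n = 3), with KRT8 at 11 reads in the untreated KGN libraries. Of 10 granulosa markers, 3 reached 1 FPKM in untreated libraries of either label. The 10 summed to 61.8 to 67.5 FPKM in KGN, mostly WT1, and 25.3 to 26.3 FPKM in COV434. WT1 went the other way from FOXL2, at 59.7 ± 2.85 FPKM in untreated KGN libraries (SD, n = 3) and with no read in any COV434 library. FSHR had no read in any library, and the 6 retina and 4 immune markers all stayed under 1 FPKM. Of 6 epithelial markers, 3 reached 1 FPKM in untreated COV434 libraries and none in untreated KGN libraries. EPCAM and CDH1 were at 0.0158 and 0.0519 FPKM in untreated COV434 libraries. The libraries are therefore named by their labels throughout. Whether the labels fit the lines was not tested, and if those of KGN and COV434 were exchanged, every result given for a line would belong to the other. SIRT3 itself was at 4.29 ± 0.0675 FPKM untreated and 4.04 ± 0.468 FPKM treated in KGN (SD, n = 3), a log2 difference of -0.07 (limma, adjusted p = 0.475), and its log2 difference in COV434 was 0.15 (limma, adjusted p = 0.929).

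In the libraries labelled KGN, 9 members were tested with all genes and the tenth, SLC38A1, had no read in any of the 6 libraries. All 9 were higher with 77-39 by their means. Of these, 8 had an adjusted p under 0.05, all of them higher, where 34.0% of the 12671 genes tested passed, 17.6% higher and 16.4% lower. Groups did not overlap for 8 of the 9, against 49.7% of all genes. The place of SLC3A2 and SLC7A11 in these counts was fixed by the choice of members, and nothing is read from them. The median log2 difference of the 9 was 0.55, beside 0.01 over all genes tested.

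**Figure D1:**
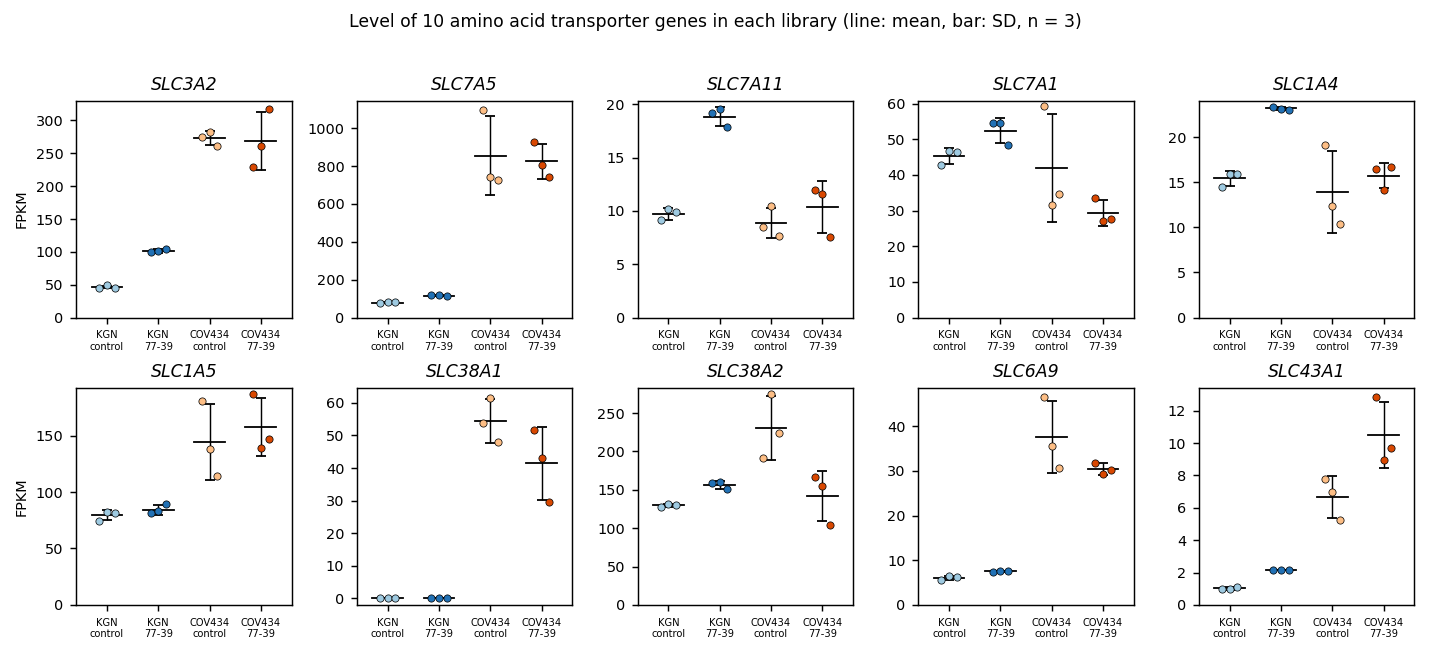
Level of each of the 10 transporters in FPKM (y axis, from 0 except for a small margin in the SLC38A1 panel) in the 12 libraries, with points for libraries, lines for means and bars for SD (n = 3). SLC3A2 lies at 45.3 to 49.0 FPKM in untreated and 99.2 to 105 FPKM in treated KGN libraries, SLC38A1 lies at 0 in all KGN libraries, and SLC7A5 is far higher in the COV434 libraries.

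The heavy chain SLC3A2 (ENSG00000168003, plus strand of chromosome 11, 62856102 to 62888875, GRCh38) had the largest difference of the members in KGN. Its level was 45.7, 49.0 and 45.3 FPKM in the untreated and 99.2, 101 and 105 FPKM in the treated libraries labelled KGN. Every treated library was above every untreated library, by 2.18-fold in the means, and the log2 difference was 1.11 (SE 0.05). In the libraries labelled COV434 the level was 275, 282 and 262 FPKM untreated and 230, 261 and 317 FPKM treated. Treated libraries lay on both sides of the untreated ones there, with a log2 difference of -0.03 (SE 0.18; limma, adjusted p = 0.993). The difference between the lines in their log2 differences, KGN minus COV434, was 1.14 (SE 0.16), given without a test.

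The light chain SLC7A5 (ENSG00000103257, minus strand of chromosome 16, 87830023 to 87869488) was at 75.1, 81.8 and 80.8 FPKM in untreated and 118, 118 and 114 FPKM in treated KGN libraries. The groups did not overlap, and the log2 difference was 0.55 (SE 0.05). In COV434 the level was 1095, 740.2 and 728 FPKM untreated and 927, 806 and 745 FPKM treated, which overlapped, with a log2 difference of -0.03 (SE 0.22; limma, adjusted p = 0.997). Untreated library 1 stood well above the other two, and without it the log2 difference in COV434 was 0.16. SLC7A5 was among the most abundant transcripts in the libraries labelled COV434. Its mean was above that of 99.7% of the genes that reached 1 FPKM on average in untreated COV434 libraries. In untreated KGN libraries it was above 97.2% of the genes that reached 1 FPKM there.

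The cystine transporter SLC7A11 (ENSG00000151012, minus strand of chromosome 4, 138164097 to 138242349) was at 9.12, 10.2 and 9.90 FPKM untreated and 19.1, 19.5 and 17.8 FPKM treated in KGN. All treated libraries were higher, by 1.94-fold in the means, with a log2 difference of 0.89 (SE 0.06). In COV434, 8.48, 10.4 and 7.67 FPKM untreated stood beside 11.9, 11.6 and 7.53 FPKM treated, and the groups overlapped because treated library 3 was the lowest of the 6. The log2 difference was 0.19 (SE 0.20; limma, adjusted p = 0.918), and ran from 0.08 without treated library 1 to 0.38 without treated library 3. SLC7A11-AS1, an antisense gene that overlaps SLC7A11, was also higher in treated KGN libraries, with 18, 17 and 30 reads untreated and 54, 50 and 49 reads treated. The library kit does not mark strand, so reads of the overlap cannot be assigned between these genes, but SLC7A11 had 1630 to 1879 reads untreated and 2876 to 3348 reads treated. SLC7A5P1, a pseudogene of SLC7A5, had 15 to 33 reads in KGN libraries, far under the 6609 or more of SLC7A5, and SLC7A5P2 had none. MIR6775 and AC126696.2, which overlap SLC7A5, had at most 30 reads in any library.

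Because FPKM is per gene length, levels of the chains could be set against each other. The length is 1 figure per gene, though SLC3A2 has 23 annotated transcripts. The value of a ratio is therefore approximate, and it is better compared between libraries. The FPKM of SLC7A5 over that of SLC3A2 was 1.70 ± 0.0734 in untreated and 1.15 ± 0.0558 in treated KGN libraries (SD, n = 3), with no overlap. SLC3A2 was chosen for its higher level in treated KGN libraries, so a lower ratio there follows in part from the choice and is a description. The ratio of SLC7A11 to SLC3A2 was 0.208 ± 0.00939 untreated and 0.185 ± 0.0136 treated (SD, n = 3). In COV434 the SLC7A5 ratio was 3.13 ± 0.741 and 3.16 ± 0.844 (SD, n = 3; exact two-sided permutation test, p = 0.9). The ratio was highest in library 1 of both COV434 groups, 3.98 and 4.03. For the sum of the 6 light chains that pair with SLC3A2, the ratio was 1.97 ± 0.0801 and 1.36 ± 0.0721 in KGN and 3.19 ± 0.746 and 3.22 ± 0.863 in COV434 (SD, n = 3; exact two-sided permutation test in COV434, p = 0.9). Of the other 4 light chains, SLC7A6 was at 2.70 FPKM in untreated KGN and 6.22 FPKM in untreated COV434 libraries, SLC7A8 at 0.0122 and 2.04 FPKM, and SLC7A7 and SLC7A10 stayed under 0.3 FPKM in every library.

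**Figure D2:**
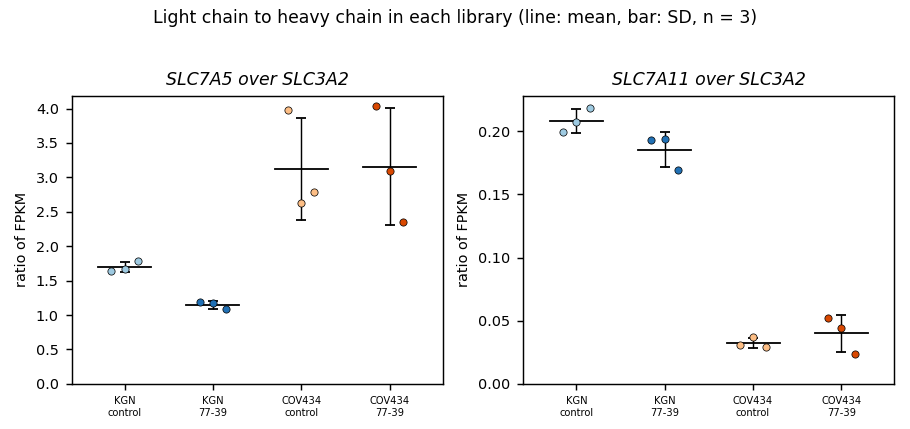
Ratio of the FPKM of SLC7A5 (left) and SLC7A11 (right) to that of SLC3A2 in each library (y axes from 0), with points for libraries, lines for means and bars for SD (n = 3). The SLC7A5 ratio is lower in treated than in untreated KGN libraries, 1.15 against 1.70, and the COV434 groups overlap in both panels.

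The exchangers SLC1A4 (ASCT1, ENSG00000115902, chromosome 2, 64988477 to 65023865) and SLC1A5 (ASCT2, ENSG00000105281, chromosome 19, 46774883 to 46788594) share substrates, but their values differed in KGN. SLC1A4 was at 14.5, 15.9 and 15.9 FPKM untreated and 23.3, 23.1 and 23.0 FPKM treated, without overlap (log2 difference 0.56, SE 0.05). SLC1A5 was at 74.1, 82.6 and 81.8 FPKM untreated and 81.0, 82.9 and 89.4 FPKM treated. The groups of SLC1A5 overlapped, and its log2 difference of 0.09 (SE 0.06) was the smallest of the 9. In COV434 the log2 difference was 0.20 (SE 0.22; limma, adjusted p = 0.918) for SLC1A4 and 0.14 (SE 0.22; limma, adjusted p = 0.960) for SLC1A5, with overlap for both. Without untreated library 1 or 3 the log2 difference of SLC1A4 was 0.44 or 0.03, with an adjusted p of 0.437 in limma for the first (unadjusted p = 0.0261).

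SLC38A2 (SNAT2, ENSG00000134294, chromosome 12, 46358189 to 46372867), a sodium-coupled carrier known to respond to amino acid shortage, was higher in treated KGN and lower in treated COV434 libraries. In KGN it was at 128, 131 and 130.4 FPKM untreated and 158, 161 and 151 FPKM treated, higher in every treated library (log2 difference 0.27, SE 0.05). In COV434 it was at 192, 274 and 224 FPKM untreated and 167, 155 and 104 FPKM treated, lower in every treated library. The means differed 1.62-fold, with a log2 difference of -0.71 (SE 0.23), an unadjusted p of 0.0151 and an adjusted p of 0.415 in limma. The test across all genes thus did not call it. With all 12 libraries in 1 fit the adjusted p was 0.0452. Without treated library 3 the log2 difference was -0.50 (unadjusted p = 0.0528 in limma), and without untreated library 2 it was -0.57 (unadjusted p = 0.0551 in limma). The difference of the log2 differences, KGN minus COV434, was 0.97 (SE 0.25), without a test.

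SLC38A1 (SNAT1, ENSG00000111371, chromosome 12, 46183063 to 46270017) is the neighbor of SLC38A2 and lies 88171 bases from it. It had 0 reads in all 6 KGN libraries. In COV434 it was at 54.0, 61.5 and 48.0 FPKM untreated and 51.7, 43.0 and 29.5 FPKM treated. These groups overlapped, with a log2 difference of -0.42 (SE 0.22; limma, adjusted p = 0.733), which was -0.20 without treated library 3. Against the 3 reads per library that a count of 0 allows, untreated COV434 libraries were at least 3109-fold higher than untreated KGN libraries, and the treated ones at least 2312-fold. The nearest protein-coding genes, looked up after the values were seen, were present or absent in both lines alike. SCAF11, on the other side of SLC38A1, was at 8.72 to 11.1 FPKM in KGN and 6.59 to 12.1 FPKM in COV434, and SLC38A4, beyond SLC38A2, was at or under 0.101 FPKM in every library.

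Arginine and lysine carrier SLC7A1 (CAT1, ENSG00000139514, chromosome 13, 29509410 to 29595688) was at 42.7, 46.7 and 46.4 FPKM untreated and 54.5, 54.5 and 48.3 FPKM treated in KGN (log2 difference 0.21, SE 0.07). The groups did not overlap, though treated library 3 was close to the untreated ones. In COV434 it was at 59.2, 31.7 and 34.7 FPKM untreated and 33.6, 27.0 and 27.6 FPKM treated, with overlap. Its log2 difference there was -0.45 (SE 0.24; limma, adjusted p = 0.745), and without untreated library 1, the highest, it was -0.17.

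The glycine transporter SLC6A9 (GlyT1, ENSG00000196517, chromosome 1, 43991500 to 44031467) was at 5.55, 6.40 and 6.32 FPKM untreated and 7.37, 7.60 and 7.59 FPKM treated in KGN, without overlap (log2 difference 0.27, SE 0.06). It is overlapped on the opposite strand by 2 genes, CCDC24, with 69 to 141 reads in the KGN libraries, and AL139220.2, with 38 to 98 reads, beside 531 to 691 reads of SLC6A9. In COV434, 46.5, 35.7 and 30.7 FPKM untreated stood beside 31.8, 29.4 and 30.1 FPKM treated, with overlap (log2 difference -0.28, SE 0.18; limma, adjusted p = 0.795). Without untreated library 1 the log2 difference was -0.12.

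SLC43A1 (LAT3, ENSG00000149150, chromosome 11, 57484534 to 57515786) was at a low level in KGN and a higher one in COV434. In KGN it was at 1.01, 0.961 and 1.12 FPKM untreated and 2.14, 2.19 and 2.15 FPKM treated, higher in every treated library. The fold of the means was 2.09, and the log2 difference of 0.64 (SE 0.08) understates it, since the level is near the pseudocount of 1. With a pseudocount of 0.1 it was 1.00. In COV434 it was at 7.81, 6.96 and 5.26 FPKM untreated and 12.8, 8.97 and 9.71 FPKM treated, without overlap, and 1.57-fold higher in the means. The log2 difference there was 0.58 (SE 0.19), with an unadjusted p of 0.0151 and an adjusted p of 0.415 in limma, so it was not called. In 1 fit of all 12 libraries the adjusted p was 0.0429. Without treated library 1 the log2 difference was 0.44 (unadjusted p = 0.0502 in limma), and without untreated library 3 it was 0.44 (unadjusted p = 0.0743 in limma).

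**Figure D3:**
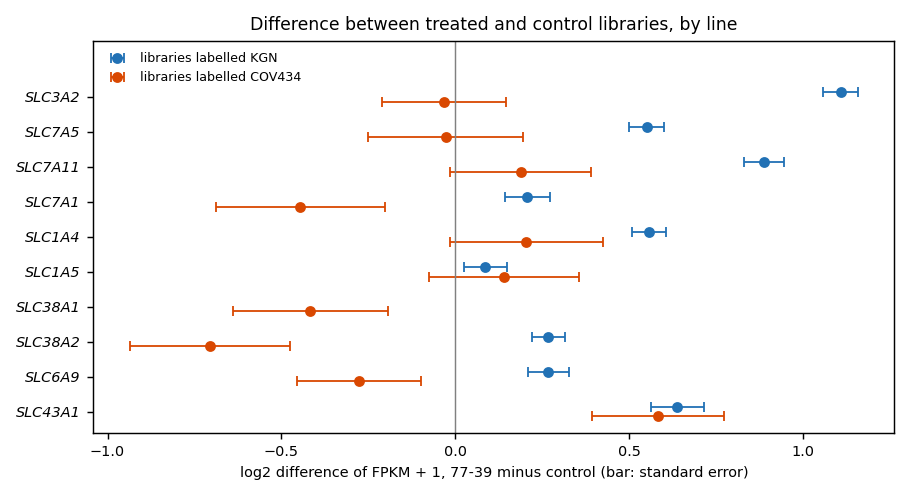
Log2 difference of FPKM + 1 between 77-39 and control (x axis) for each member (y axis) in the libraries labelled KGN (blue) and COV434 (orange), with standard errors as bars. All 9 KGN points lie above 0, with SLC3A2 at 1.11, whereas the COV434 points run from -0.71 for SLC38A2 to 0.58 for SLC43A1, and SLC38A1 has no KGN point because it had no reads.

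In COV434 as a whole, none of the 10 members passed an adjusted p of 0.05 in limma, where 0.0415% of the 12060 genes tested did. At an unadjusted p under 0.05, SLC43A1 (higher) and SLC38A2 (lower) passed, 2 of 10, against 8.0% of all genes. The same 2 were the members whose groups did not overlap, against 14.4% of all genes. The median log2 difference of the members was -0.03, beside -0.02 over all genes. Same-numbered treated and untreated COV434 libraries deviated together, and with the library number as a replicate block 4 of 10 members had an unadjusted p under 0.05, against 14.4% of all genes. These were SLC43A1, SLC38A2, SLC7A1 and SLC38A1, with adjusted p of 0.140, 0.154, 0.224 and 0.258 in limma. Library 1 had the highest level of 6 of the 10 members among untreated and of 8 among treated COV434 libraries, and also the highest share of mitochondrially encoded reads in each group, 9.63% and 13.5%. The part of this share in the members' values was not tested. In bulk RNA, fewer cells with a transcript and less transcript per cell cannot be told apart.

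Before treatment the lines differed in 7 of the 10 members at an adjusted p under 0.05 in limma, all lower in the libraries labelled KGN, where 69.0% of the 13098 genes tested passed and 36.4% were lower in KGN. Groups did not overlap for the same 7 members, against 74.1% of all genes. SLC7A5 was 10.8-fold higher in untreated COV434 libraries (854 ± 209 against 79.2 ± 3.59 FPKM, SD, n = 3), with a log2 difference, KGN minus COV434, of -3.39 (SE 0.18; adjusted p = 5.07e-06). SLC3A2 was 5.85-fold higher in COV434, with a log2 difference of -2.52 (SE 0.09; adjusted p = 8.96e-07). Both chains of the leucine exchanger were thus at a higher level in the libraries labelled COV434.

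SLC43A1 was 6.48-fold higher in untreated COV434 than in untreated KGN libraries (log2 difference -1.91, adjusted p = 2.3e-05), and SLC6A9 was 6.18-fold higher (log2 difference -2.43, adjusted p = 1.48e-05). SLC1A5 and SLC38A2 differed by less, 1.82-fold and 1.77-fold (log2 differences -0.83 and -0.81, adjusted p = 0.00529 and 0.00248). SLC38A1 was the seventh. It had no reads in KGN, so it passed the filter through the COV434 libraries alone and 1 arm of its test had no spread. Its p is therefore not given, and its place among the 7 is a description. SLC7A11, SLC7A1 and SLC1A4 did not pass, with log2 differences of 0.13 (SE 0.12; adjusted p = 0.363), 0.16 (SE 0.23; adjusted p = 0.552) and 0.18 (SE 0.21; adjusted p = 0.464). Without untreated COV434 library 1, SLC7A1 and SLC1A4 were higher in KGN by 0.44 and 0.42 (adjusted p = 0.00278 and 0.00696), so that 9 members passed. The divisor of the deposited FPKM also differed between the lines. It was 1.07 to 1.10 times the recovered reads in KGN and 0.911 to 0.978 times in COV434, and scaling to the recovered reads moved the median of all genes from -0.02 to 0.16 and the share of called genes that were higher in KGN from 47.3% to 56.8%. All 7 members kept their direction under that scaling.

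The order of levels also differed between the lines. In untreated KGN libraries SLC38A2 was the highest at 129.8 FPKM, followed by SLC1A5 and SLC7A5, whose libraries overlapped, then by SLC3A2 and SLC7A1, which overlapped as well, and by SLC1A4, SLC7A11, SLC6A9 and SLC43A1, which did not. In untreated COV434 libraries SLC7A5 came first, then SLC3A2 and SLC38A2, which overlapped, and SLC1A5, followed by SLC38A1, SLC7A1 and SLC6A9, which overlapped, and the lowest 3, SLC1A4, SLC7A11 and SLC43A1, overlapped in turn. In treated KGN libraries SLC3A2 stood above SLC1A5 without overlap, at 102 against 84.4 FPKM.

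The carriers closest in function were 42 other transporters of amino acids or related compounds, of which 12 were measured above the filter in KGN. Of these, 6 rose at an adjusted p under 0.05 and none fell, where 34.0% of all genes passed, with a median log2 difference of 0.20. SLC38A7, a lysosomal exporter of glutamine, rose from 5.22 to 7.94 FPKM (log2 difference 0.52, SE 0.08; limma, adjusted p = 0.00386). CTNS, the lysosomal cystine exporter, rose from 8.49 to 11.9 FPKM (log2 difference 0.44, SE 0.06; limma, adjusted p = 0.00309). SLC36A4 and SLC38A6 rose by 0.43 and 0.40 (limma, adjusted p = 0.00450 and 0.00519). The other two were SLC36A1 and SLC38A9, which takes part in arginine sensing at the lysosome, at 0.32 and 0.28 (limma, adjusted p = 0.0150 and 0.0267). In 1 fit of all 12 libraries, which shares the wider spread of COV434, 3 of the 6 remained: CTNS, SLC36A4 and SLC38A6. With a KGN library left out, 4 to 6 remained. SLC38A9 then passed only without untreated library 1, and its adjusted p was 0.0767 in limma with no filter. SLC36A1 did not pass without treated library 1, treated library 2 or untreated library 3, nor with no filter (adjusted p = 0.0518 in limma).

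In COV434 none of the 17 tested passed an adjusted p of 0.05 in limma, and 4 had an unadjusted p under 0.05, 1 higher and 3 lower, where 8.0% of all genes did. The lowest p was that of SLC6A8, the creatine transporter, at 43.8 FPKM untreated and 22.3 FPKM treated (log2 difference -0.94, SE 0.18; adjusted p = 0.126). With the replicate block its adjusted p was 0.0369, and it was then the 1 gene of the 17 to pass. SLC38A3, another glutamine carrier, was at 1.55 FPKM untreated and 0.473 FPKM treated. It passed the filter through its untreated libraries, so its place among the 17 rests on the group where it was high. Its log2 difference was -0.79 (SE 0.16, adjusted p = 0.147 in limma), and -1.53 with a pseudocount of 0.1.

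**Figure D4:**
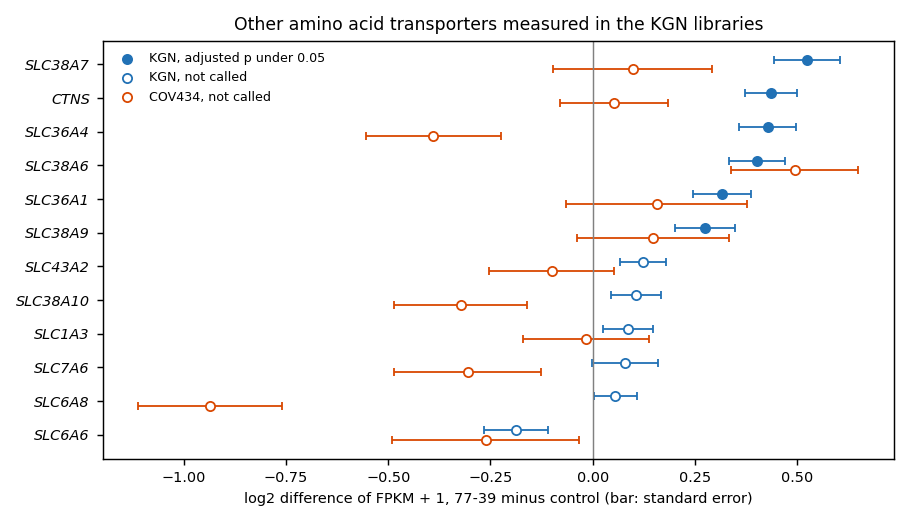
Log2 difference of FPKM + 1 between 77-39 and control (x axis) for the 12 other amino acid transporters measured in the KGN libraries (y axis), with standard errors as bars, filled points past an adjusted p of 0.05, blue for KGN and orange for COV434. The 6 filled points lie between 0.28 and 0.52, and no COV434 point is filled, SLC6A8 at -0.94 included.

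Of 12 mitochondrial amino acid carriers, 9 were tested in KGN, where 1 rose and 2 fell, a share of 33.3% beside 34.0% of all genes. The ornithine carrier SLC25A15 rose by 0.32, while SLC25A29, which carries basic amino acids, and SFXN2 fell by 0.40 and 0.24 on the log2 scale (limma, adjusted p = 0.0130, 0.00367 and 0.0337). With any KGN library left out, 1 gene of the list was called lower, and the rise was not called in 1 fit of all 12 libraries. Of 18 enzymes that use the transported amino acids, 13 were tested, and 4 rose and 2 fell, 46.2% beside 34.0% of all genes, with 1 rise left in 1 fit of all 12 libraries. GOT1, the cytosolic aspartate aminotransferase, rose by 0.44, and GCSH of the glycine cleavage system by 0.41, and BCKDK, the kinase that restrains branched-chain amino acid breakdown, fell by 0.41 (limma, adjusted p = 0.000825, 0.00681 and 0.0112).

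Among 19 genes of the ATF4 response, 15 were tested in KGN, with 9 higher and 2 lower, 73.3% where 34.0% of all genes passed. The median log2 difference was 0.38. In 1 fit of all 12 libraries 2 were higher and 1 lower, and 1 to 3 were lower with a KGN library left out. ATF3 rose from 8.40 to 26.5 FPKM, by 1.55, DDIT3 (CHOP) by 0.86 and GDF15 by 0.76, while DDIT4, an inhibitor of mTORC1, fell by 0.76 (limma, adjusted p = 1.2e-05, 0.000116, 0.00162 and 0.00692). The RNA of ATF4 itself did not rise in KGN. It was at 260, 277 and 258 FPKM untreated and 224, 235 and 245 FPKM treated, lower in every treated library. Its log2 difference of -0.18 (SE 0.06; limma, adjusted p = 0.0541) was not called. Of 21 genes of cystine use, glutathione and the NRF2 response, 19 were tested, with 5 higher and 3 lower, 42.1% beside 34.0% of all genes. In 1 fit of all 12 libraries 3 were higher and 1 lower, and without treated library 1 a single one was lower. HMOX1 rose by 2.62, GCLM, a subunit of the enzyme that makes the glutathione precursor, by 0.51, and the peroxiredoxin PRDX1 by 0.32, and KEAP1, which holds NRF2 in check, fell by 0.34 (limma, adjusted p = 3e-06, 0.00127, 0.0113 and 0.0024).

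Of 25 genes of amino acid sensing, 22 were tested in KGN, with 8 higher and 1 lower, 40.9% beside 34.0% of all genes. Both without treated library 2 and in 1 fit of all 12 libraries, 4 were higher. The Rag GTPases RRAGB, RRAGD and RRAGC, which bring mTORC1 to the lysosome when amino acids are present, rose by 0.68, 0.52 and 0.51, and CASTOR2, of the CASTOR family to which the arginine sensor belongs, fell by 0.51 (limma, adjusted p = 0.000596, 0.00794, 0.00265 and 0.00368). Of 9 partners of CD98, 5 were tested and 2 were higher (1 in 1 fit of all 12 libraries), a share near the 34.0% of all genes. They were SLC16A1 (MCT1), a lactate carrier, by 0.49 and ITGB1, the integrin beta subunit to which CD98 binds, by 0.26 (limma, adjusted p = 0.000613 and 0.00877). In COV434 no gene of any of these 6 lists passed an adjusted p of 0.05 in limma, out of 88 tested, and 11 had an unadjusted p under 0.05, where 8.0% of all genes did. In 1 fit of all 12 libraries 3 genes of the glutathione list, 1 enzyme and 2 partners of CD98 passed the adjusted threshold, and with the replicate block 2 partners of CD98.

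The genes whose pattern was most like that of SLC3A2, by Pearson's r of log2(FPKM + 1) over the 12 libraries after each line was centred on its mean, were ATF3 (r = 0.982), TMIE (r = 0.981) and SYT11 (r = 0.968) among 13127 genes. For SLC7A11 they were PRDM4 (r = 0.975), SEL1L (r = 0.975), which takes part in disposal of misfolded proteins from the endoplasmic reticulum, and ATF6 (r = 0.968), a sensor of stress in that compartment. SEL1L was at 9.33 FPKM untreated and 15.4 FPKM treated in KGN, and at 4.16 and 4.34 FPKM in COV434. TMIE was at 0.694 and 4.62 FPKM in KGN and at 0.237 and 0.230 FPKM in COV434. It thus reached the filter of 1 FPKM over the 12 libraries only through treated KGN. SYT11 was at 14.6 and 20.5 FPKM in KGN and at 0.0153 and 0.0511 FPKM in COV434, so its r rests mainly on the KGN libraries. Among the members themselves r was 0.76 between SLC3A2 and SLC7A11, 0.71 between SLC3A2 and SLC7A5, 0.89 between SLC7A5 and SLC1A4, 0.88 between SLC7A1 and SLC6A9 and -0.24 between SLC38A2 and SLC43A1. The higher level in treated KGN libraries, by which SLC3A2 and SLC7A11 were chosen, also enters these correlations. All points share the treatment, the library depth and the FPKM divisor, and these correlations are a description only.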

How the data were processed

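Total RNA of the 12 libraries had been made into Illumina TruSeq libraries without strand information. The authors deposited FPKM for each gene and library (fragments scaled to gene length and library size). The submitters' processing notes name HISAT2 2.0.5 and the mouse builds mm10 and mm8, and the extraction text of the labels speaks of retinas, whereas the coordinates of all 58735 genes equal those of GENCODE release 29 on human GRCh38. The counting program is not given in the sources used here. FPKM times gene length gave whole reads in 100% of values (tolerance 0.05), which served for depth, for read counts and for the alternatives that use recovered reads. Comparisons used limma 3.58.1 in R 4.3.3 (lmFit, eBayes with trend, two-sided) on log2(FPKM + 1) in each line alone or in the untreated libraries, with the mean FPKM of a gene required to reach 1, with Benjamini-Hochberg adjustment over all genes tested and a threshold of 0.05. A log2 difference on this scale understates changes of low genes. Ratios were compared by exact permutation tests, which cannot go below p = 0.1 with 3 against 3. The method was tested on simulated data.

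The members and the 7 other gene lists were chosen with earlier results of these data known. Named in the text are all members, SIRT3, in each other list up to 4 genes with the largest absolute log2 difference among those past the adjusted threshold, overlapping and antisense genes or pseudogenes of members, the 3 genes most correlated with SLC3A2 and with SLC7A11, and cell type markers. SLC36A1, SLC38A9, SLC6A8, SLC38A3, SCAF11, SLC38A4 and ATF4 were named after their values were seen. For 2 genes of the lists, MARCHF1 and MARCHF8, the table holds a symbol turned into a date, and they were found by gene ID. The values of 2 genes that this rule names are not reported here. No library was identical to another. Same-numbered COV434 libraries shared deviations from the mean of their group (correlation over genes 0.400, 0.474 and 0.166 for the 3 numbers), and those labelled KGN did not (-0.016, -0.018 and -0.019). As alternatives, results were recomputed with median-ratio scaling, with scaling to the recovered reads, by voom of limma on these reads, at a filter of 0.1 FPKM or none, with 0.1 as the pseudocount, in 1 fit of all 12 libraries, with a replicate block, and without each library in turn. Figures were drawn with matplotlib 3.10.9, and tables were made with Python 3.11.15, pandas 2.3.3, numpy 2.4.6 and scipy 1.17.1.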

Additional observations from a re-analysis of the deposited data

Results flagged for a closer look

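SLC38A2 differed in direction between the lines. It was higher in all 3 treated libraries labelled KGN than in any untreated one. In those labelled COV434 it was lower in all 3 treated libraries than in any untreated one. The lower level in COV434 was not called (limma, adjusted p = 0.415). Its unadjusted p in limma was 0.0528 without treated library 3 and 0.0551 without untreated library 2. The difference of the log2 differences, KGN minus COV434, was 0.97 (SE 0.25). The difference was not tested, because the KGN contrast chose members. Over all genes, groups did not overlap for 49.7% in KGN and for 14.4% in COV434.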

How the results depend on the processing

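For the members in KGN, all 9 log2 differences stayed above 0 under the 9 alternatives run for them, where 14 were run in COV434. SLC3A2 and SLC7A11 had been chosen for that sign. In the untreated lines the 7 calls rose to at most 9. No single member that had passed the threshold between the untreated lines lost it. The wider spread of the COV434 libraries limits what could be called there. The number of genes with an adjusted p under 0.05 in COV434 was 3 with the filter at 0.1 FPKM, 1 with no filter, 3 with a pseudocount of 0.1, 488 in 1 fit of 12 libraries, 87 with the replicate block, 25 with voom and 1 to 7 with a library left out. At an unadjusted p it was 1620 with no filter, 2121 in 1 fit, 1739 with the block and 589 to 1215 with a library left out. In KGN 1237 genes passed in 1 fit and 2751 to 4128 with a library left out, with 2751 without treated library 2. Of the members in COV434, 2 passed an adjusted p in 1 fit, and 4 passed an unadjusted p in 1 fit and 4 with the block, against 1 to 3 with a library left out. Of the other transporters, 3 were higher in KGN in 1 fit, 4 to 6 with a library left out, and 1 was lower by voom. In COV434 1 was higher and 2 lower in 1 fit, and 1 was lower with the block. The replicate block changed no other call of a member; the numbers pair neither the KGN nor the untreated libraries.

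The sign turned for 4 members only when a library was left out, in contrasts that had not passed. In COV434, SLC3A2 ran from -0.16 to 0.075 (without treated library 1), SLC7A5 from -0.13 to 0.16 (without untreated library 1, and 0.04 without treated library 3), and SLC1A5 from -0.016 (without untreated library 3) to 0.31. Between untreated lines SLC7A1 ran from -0.0047 (without COV434 library 2) to 0.44. A fit with 2 libraries in an arm takes its spread from both arms. The causes were not tested. SLC7A11 passed between the untreated lines by voom (log2 difference 0.36, adjusted p = 0.0389), against 0.0509 with scaling to recovered reads.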
